A study of Mus musculus with 6 samples.

Results

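The insulin-like growth factor (IGF) genes examined here comprise 10 members: the ligands Igf1 and Igf2, the receptors Igf1r and Igf2r, and the binding proteins Igfbp2, Igfbp3, Igfbp4, Igfbp5, Igfbp6 and Igfbp7. A gene entered the family by its symbol in the platform's probe-to-gene table, out of 19288 genes with a probeset of their own. Each of the 10 had 1 probeset, and all 10 were above the detection level (the 25th percentile of an array's signal) on all 6 arrays. The arrays came from cultured mouse embryonic fibroblasts, 3 with the hairpin shARF and 3 with the hairpin shSCR. A hairpin construct lowers the level of the transcript whose sequence it carries, and ARF is a tumour suppressor protein encoded by Cdkn2a. The series title names the cells of both groups dp53R and every sample title carries the word Ras, so both labels are shared by shARF and shSCR cells. The p53 status, the form of Ras, the number of hairpins and the passage of the cells are not given in the sources used here. All cells grew in medium with fetal bovine serum, which itself carries growth factors.

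IGF1 and IGF2 are small secreted relatives of insulin that drive growth and survival through the IGF1 receptor, a tyrosine kinase that feeds the PI3K-AKT and RAS-ERK pathways. The IGF2 receptor, which is also the cation-independent mannose 6-phosphate receptor, binds IGF2 and carries it to lysosomes without a kinase signal of its own. The secreted binding proteins hold IGFs in the extracellular fluid and on matrix, and can either withhold the ligands from the receptor or deliver them to it. Igf2 and Igf2r are imprinted in the mouse: Igf2 is mainly expressed from the paternal allele and Igf2r from the maternal allele. Fibroblasts make most of these proteins and also respond to them.

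In shARF cells the ligand gene Igf2 was lower, the receptor gene Igf2r was higher and the binding protein gene Igfbp3 was lower, and the other 7 members did not pass the test. Igfbp3 signal was 1.93-fold lower, Igf2 1.46-fold lower and Igf2r 1.41-fold higher, with 3 arrays in each group. Over all 15145 genes tested, 4.01% passed in either direction, 1.62% higher and 2.38% lower in shARF (limma, adjusted p under 0.05). The median log2 difference was -0.13 over the 10 members and -0.01 over all genes tested, and the median absolute difference was 0.30 over the members and 0.10 over all genes. Values are RMA signals on a linear scale and differences are on the log2 scale, shARF minus shSCR. RMA quantile normalization gives all arrays nearly the same distribution, so these are differences relative to the other genes on the array.

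The promoter windows of the 3 members that changed are shown because Igf2 and Igfbp3 both fell and Igf2r rose. Each window runs from 250 bases before to 50 bases after a RefSeq start on GRCm38.p6 and is written 5′ to 3′ on the gene's strand, which is the minus strand for all 3 genes. They lie at chr7:142657447-142657746 for Igf2, chr17:12769657-12769956 for Igf2r and chr11:7213874-7214173 for Igfbp3. Igf2 has 4 annotated starts, of which the one farthest downstream is printed, and the Igf2 probeset does not separate them here. Capitals mark 3 motifs on either strand, of which the first is the GC box, with the letters GGGCGG. The other motifs marked are the CCAAT box, named by its letters, and the E-box in the form CACGTG.
Igf2: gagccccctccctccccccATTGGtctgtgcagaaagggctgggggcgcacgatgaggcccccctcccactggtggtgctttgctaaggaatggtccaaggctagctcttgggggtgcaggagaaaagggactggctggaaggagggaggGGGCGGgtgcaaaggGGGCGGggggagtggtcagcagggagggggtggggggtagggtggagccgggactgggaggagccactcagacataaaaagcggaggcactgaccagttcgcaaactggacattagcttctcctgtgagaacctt
Igf2r: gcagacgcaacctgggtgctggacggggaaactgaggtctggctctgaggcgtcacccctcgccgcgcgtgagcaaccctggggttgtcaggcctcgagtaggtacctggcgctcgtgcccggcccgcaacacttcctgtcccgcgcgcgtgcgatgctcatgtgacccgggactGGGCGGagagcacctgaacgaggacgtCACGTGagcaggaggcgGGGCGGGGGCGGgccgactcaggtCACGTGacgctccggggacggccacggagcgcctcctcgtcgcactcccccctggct
Igfbp3: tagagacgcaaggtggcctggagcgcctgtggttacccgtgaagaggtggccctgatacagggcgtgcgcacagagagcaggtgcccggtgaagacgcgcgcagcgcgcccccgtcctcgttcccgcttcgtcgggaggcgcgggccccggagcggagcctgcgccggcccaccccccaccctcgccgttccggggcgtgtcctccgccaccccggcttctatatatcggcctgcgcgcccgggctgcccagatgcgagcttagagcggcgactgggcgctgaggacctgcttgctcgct
The Igf2 window held 2 GC boxes and 1 CCAAT box, and the Igf2r window held 3 GC boxes and 2 E-boxes, with no overlap among these matches. The Igfbp3 window held 0 of these motifs and 37 CG pairs, against 34 in the Igf2r window, 7 in the Igf2 window shown and a median of 7 over all 32851 windows. GC boxes stood in 35.7% of all windows, CCAAT boxes in 37.4% and E-boxes in 7.15%. The exact TATA box letters TATAAA, in 13.6% of all windows, had no match in any window of the 3 genes. Other forms of the TATA box were not searched, and the Igfbp3 window printed holds the run tatatat. A match to the p53 half-site, in 8.36% of all windows, occurred once among these genes, in the Igf2 window printed. These are letter matches in short windows and no factor's binding was measured.

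The hairpin's target was checked first. Cdkn2a gave signals of 315.4, 254 and 286 in the shARF arrays and 535, 539 and 516 in the shSCR arrays. Every shARF array lay below every shSCR array, and the difference was -0.90 ± 0.086 on the log2 scale (SE; limma, adjusted p = 0.00459). The locus also encodes p16Ink4a, so the probeset may read both transcripts. Arrays of the same group had a Pearson correlation of 0.995 to 0.996 and arrays of different groups 0.990 to 0.993, across genes, which are not independent replicates. The labels call the replicates biological without saying whether they came from separate cultures, so the p-values measure only the spread between these samples.

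Among the ligands, Igf2 fell in shARF cells. Igf2, the fetal growth factor of the family, gave 1629.7, 1421 and 1583 in the shARF arrays and 2385, 2173 and 2185 in the shSCR arrays. The groups did not overlap: the highest shARF array stood well under the lowest shSCR array. The means were 1545 ± 109.6 in shARF and 2248 ± 119 in shSCR (SD, n = 3 each), a log2 difference of -0.54 ± 0.076 (SE; limma, adjusted p = 0.0144). The shARF mean of log2 values corresponded to 68.7% of the shSCR level. The call was lost without shSCR replicate 1 (adjusted p = 0.0575) or shSCR replicate 3 (0.0600), and the 16 alternatives gave values from 1.84e-04 to 0.0847. The difference itself lay between -0.58 and -0.48 whichever array was left out.

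Igf1, the growth hormone-regulated ligand, was higher on every shARF array and did not pass the test. It gave 87.1, 85.4 and 90.7 in the shARF arrays and 76.0, 59.4 and 70.4 in the shSCR arrays. The groups did not overlap, and the shSCR arrays spread more widely than the shARF arrays. The log2 difference was 0.36 ± 0.096 (SE; limma, adjusted p = 0.0959), with a 95% interval of 0.14 to 0.59. Igf1 did not pass in any of the 16 alternatives run, where the adjusted p lay between 0.0519 and 0.230. Its difference had the opposite sign to that of Igf2, and the difference between these 2 responses was not tested.

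**Figure D1:**
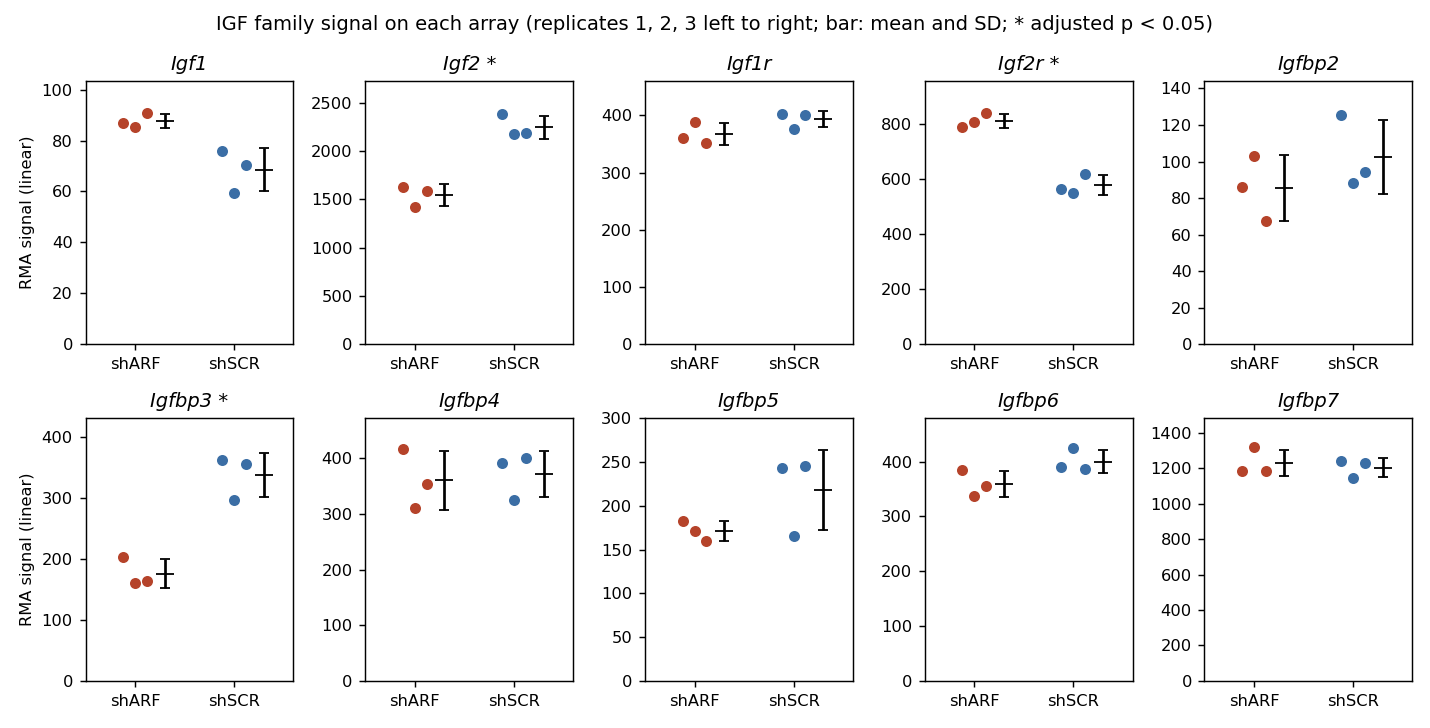
Linear RMA signal (vertical axes, each starting at 0) of the 10 IGF family genes on the 3 shARF arrays (red, left) and the 3 shSCR arrays (blue, right); points are arrays and bars give mean and SD. The groups separate for Igf2, Igf2r and Igfbp3, which passed the test (starred), and for Igf1 and Igfbp6, which did not.

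Between the receptors, Igf2r rose and the signalling receptor gene Igf1r did not pass. Igf2r gave 789.9, 808 and 840.4 in the shARF arrays and 566, 549.55 and 619 in the shSCR arrays. All 3 shARF arrays lay above the highest shSCR array. The means were 813 ± 25.5 in shARF and 578 ± 36.0 in shSCR (SD, n = 3 each), a log2 difference of 0.49 ± 0.068 (SE; limma, adjusted p = 0.0135). The call was lost without shARF replicate 3 (adjusted p = 0.0517) or shSCR replicate 1 (0.0594), and the 16 alternatives gave values from 3.94e-04 to 0.112. The difference stayed between 0.46 and 0.54 whichever array was left out.

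Igf1r, the kinase receptor for both ligands, gave 361, 389 and 352 in the shARF arrays and 403, 377 and 400.5 in the shSCR arrays. The groups overlapped, since shARF replicate 2 exceeded shSCR replicate 2. The log2 difference was -0.10 ± 0.066 (SE; limma, adjusted p = 0.435), and its 95% interval ran from -0.25 to 0.06. The related insulin receptor gene Insr differed by -0.08 ± 0.064 (limma, adjusted p = 0.504), so neither of these kinase receptor genes passed.

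Of the 6 binding protein genes, 1 fell and 5 did not pass. Igfbp3 encodes the main carrier of IGFs in serum and is also known as a p53 target. It gave 203, 161 and 163 in the shARF arrays and 362, 297 and 356 in the shSCR arrays. The groups did not overlap, with the highest shARF array at 203 and the lowest shSCR array at 297. The means were 176 ± 24.0 in shARF and 338 ± 36.0 in shSCR (SD, n = 3 each), a log2 difference of -0.95 ± 0.119 (SE; limma, adjusted p = 0.0102). Of all 15145 genes tested, 69 had an absolute log2 difference at least this large, Igfbp3 included. The call was lost without shSCR replicate 3 (adjusted p = 0.0544), with a difference of -0.91, and the limma alternatives gave adjusted p from 0.00023 to 0.0544.

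Igfbp5, a matrix-bound carrier abundant in mesenchymal cells, showed the second largest difference among the binding proteins. It gave 182, 171 and 159.6 in the shARF arrays and 243, 166 and 245 in the shSCR arrays. The groups overlapped because shSCR replicate 2 lay among the shARF arrays, far below the other 2 shSCR arrays. The log2 difference was -0.33 ± 0.153 (SE; limma, adjusted p = 0.280), with a 95% interval of -0.69 to 0.03. Without shSCR replicate 2 it was -0.52 and passed (limma, adjusted p = 0.0411). Igfbp5 passed in only 1 of the 16 alternatives, which gave adjusted p from 0.0411 to 0.520. Without both replicate 2 arrays the difference was also -0.52 and did not pass (limma, adjusted p = 0.104). Igfbp2, a carrier of fetal tissues that neighbours Igfbp5 in the mouse genome, gave 86.2, 103 and 67.2 in the shARF arrays and 126, 88.1 and 94.0 in the shSCR arrays. The Igfbp2 groups overlapped, and the difference of -0.27 ± 0.185 had a 95% interval of -0.70 to 0.17 (limma, adjusted p = 0.456).

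Igfbp6, which prefers IGF2 over IGF1, gave 385, 337 and 356 in the shARF arrays and 390.0, 424 and 386 in the shSCR arrays. These groups did not overlap, by a narrow margin, and the difference of -0.16 ± 0.074 with a 95% interval of -0.33 to 0.02 was short of the threshold (limma, adjusted p = 0.287). Igfbp4, an inhibitory carrier that the protease PAPP-A cleaves, gave 417, 311 and 355 in the shARF arrays and 391, 325 and 400.3 in the shSCR arrays. Replicate 2 was the lowest array of both groups for Igfbp4, and the difference was -0.05 ± 0.126 with a 95% interval of -0.35 to 0.25 (limma, adjusted p = 0.859). Igfbp7, a low-affinity relative deposited in vessel and stromal matrix, gave 1186, 1317 and 1185 in the shARF arrays and 1238, 1145 and 1228 in the shSCR arrays. Its groups overlapped, and the 95% interval of its difference ran from -0.13 to 0.19 (limma, adjusted p = 0.848).

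In all, 5 of the 10 members had groups that did not overlap, where 28.6% of all genes tested did. An exact permutation test over the 6 arrays gave p = 0.1 for each of these 5 genes, the smallest value that 3 arrays against 3 allow (two-sided). Before adjustment 4 members had p under 0.05 in limma, the 3 called genes and Igf1, where 22.2% of all genes did, 8.76% higher and 13.4% lower. The shSCR arrays differed among themselves in these genes: replicate 2 held the lowest shSCR value for 9 of the 10 members, where it was lowest for 30.8% of all genes tested. In shARF, replicate 2 was lowest for 5 of the 10 members, against 32.0% of all genes, and highest for 3, against 39% of all genes. What sets shSCR replicate 2 apart in these genes was not tested.

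**Figure D2:**
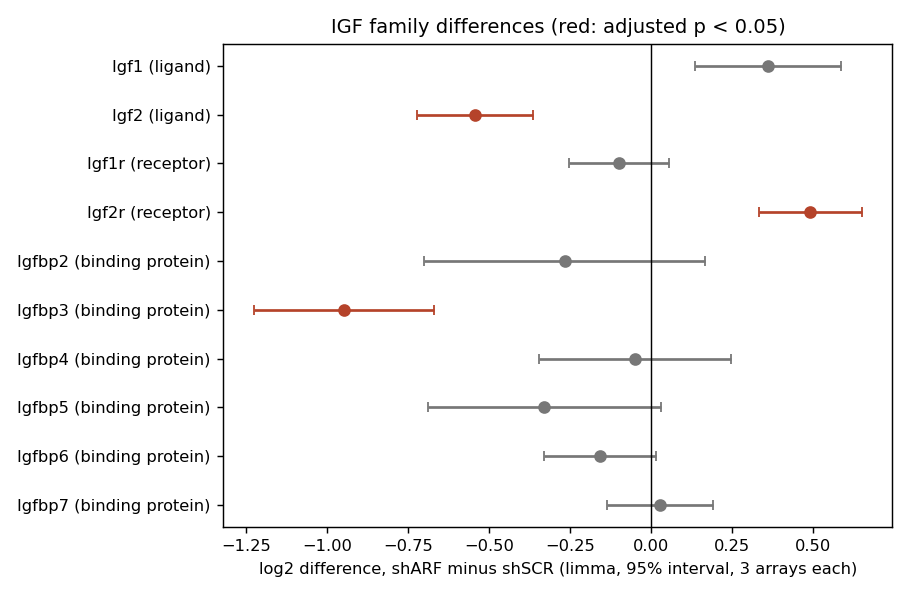
Log2 difference of each IGF family gene (horizontal axis, shARF minus shSCR) with its 95% interval from limma, 3 arrays in each group. Igfbp3 at -0.95, Igf2 at -0.54 and Igf2r at 0.49 passed the test (red), and the interval of Igf1 lay above 0 although its adjusted p was 0.0959.

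None of the tested protein-coding genes next to Igf2 or Igf2r passed the test in limma or SAM. Of the 10 nearest protein-coding genes in RefSeq order, 5 on each side, 8 were tested around Igf2 and 0 passed, with log2 differences from -0.04 for Syt8 to 0.23 for Tnnt3. Before adjustment 3 of these 8, Lsp1, Tnnt3 and Mrpl23, were higher with p under 0.05 in limma and 0 were lower. Over all genes tested, 8.76% were higher and 13.4% lower at that threshold. Of the 8 differences 7 had the opposite sign to that of Igf2, where 46.8% of all genes tested had a positive difference. Ins2, the insulin gene next to Igf2 in the mouse, measured 23.0 in shARF and 22.2 in shSCR, near the detection level of 14.1 to 14.9. Around Igf2r 5 neighbours were tested and 0 passed, from -0.05 for Mrpl18 to 0.11 for Map3k4, and before adjustment 0 had p under 0.05. Around Igfbp3 8 were tested and 1 passed: Ramp3, which encodes a partner protein of the calcitonin receptor family, fell by 0.41 ± 0.083 on the log2 scale (SE; limma, adjusted p = 0.0466). Its call was kept in 0 of 6 cases with 1 array left out, and SAM called it too. Before adjustment 1 of the 8, Wap, was higher and 2, Ramp3 and Tns3, were lower with p under 0.05, and Tns3, adjacent to Igfbp3, differed by -0.24 ± 0.091 (SE; limma, adjusted p = 0.203). Igfbp1, the liver-type binding protein gene beside Igfbp3, measured 21.9 ± 5.92 in shARF and 18.4 ± 0.659 in shSCR (SD, n = 3 each), short of the threshold (limma, adjusted p = 0.507).

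The microRNA gene Mir483 lies within Igf2 and has a probeset of its own, which was chosen for mention after its values were seen. It gave 63.2, 63.0 and 74.9 in the shARF arrays and 61.1, 54.8 and 56.8 in the shSCR arrays. All 3 shARF arrays lay above the shSCR arrays, whereas those of Igf2 lay below. The Mir483 difference of 0.22 ± 0.088 was short of the threshold (SE; limma, adjusted p = 0.219). Such a probeset reads RNA that holds the hairpin sequence and does not measure the mature microRNA.

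**Figure D3:**
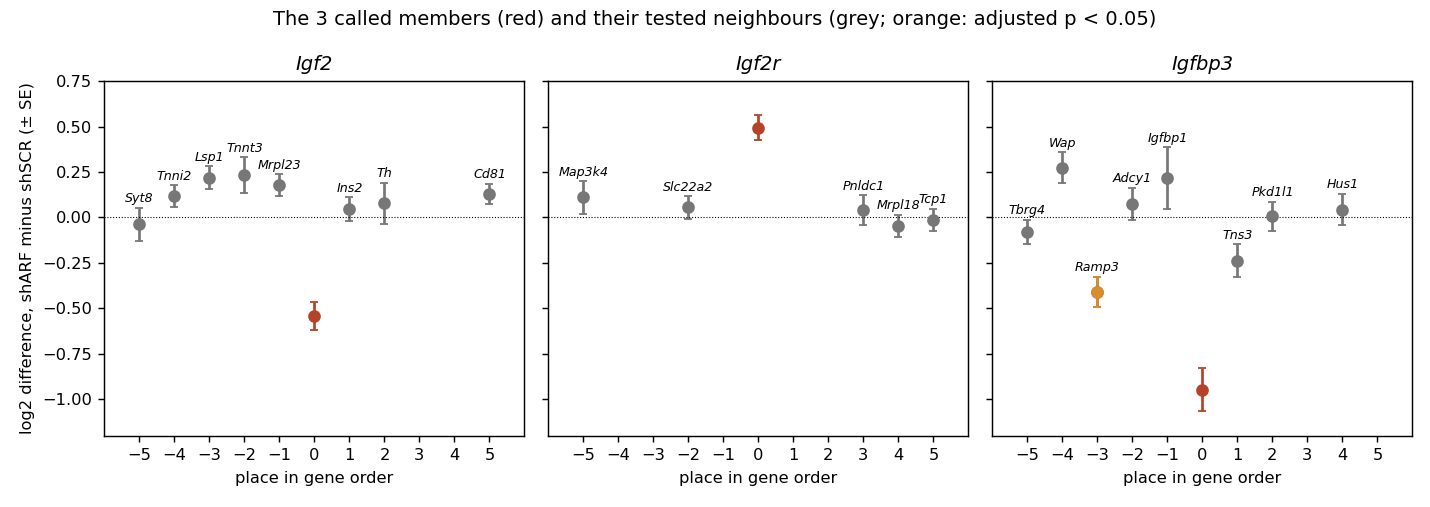
Log2 difference, shARF minus shSCR, with its SE (vertical axis) for Igf2, Igf2r and Igfbp3 (red, place 0) and their tested protein-coding neighbours by place in gene order (horizontal axis). Among all the neighbours 1 gene passed, Ramp3 at -0.41 near Igfbp3 (orange).

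Other genes of the IGF pathway were read from 8 lists with 107 genes that are not members. Of these, 95 were tested, 5 lay below the filter and 7 were not analysed here. Among the 95, 1 rose and 7 fell, or 8.42%, where 4.01% of all genes passed, and the median log2 difference was -0.07. The lists overlap in function and were chosen with earlier results of these data known, so these counts describe and do not test them. For the counts below, 8.76% of all genes tested were higher and 13.4% lower before adjustment with p under 0.05 in limma. SAM called 404 of the 15145 genes higher and 593 lower.

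Receptor adaptors and feedback inhibitors held the clearest falls. Grb14, an adaptor that inhibits the insulin receptor kinase, gave 56.0, 59.6 and 61.4 in the shARF arrays and 122, 107 and 118 in the shSCR arrays, a log2 difference of -0.97 ± 0.074 (SE; limma, adjusted p = 0.00225). Grb10, its relative, which restrains both the insulin and the IGF1 receptor and is itself imprinted, gave 1194, 1289.6 and 1191 in shARF and 1745, 1745 and 1789.5 in shSCR (-0.52 ± 0.060; limma, adjusted p = 0.00793). Neither pair of groups overlapped, and both calls held without any 1 array. Over the 16 alternatives Grb14 passed in 16 and Grb10 in 15, with the largest adjusted p at 0.0204 and 0.0553 (limma). The substrates Irs1 and Irs2, which dock PI3K to the receptor, differed by -0.01 ± 0.075 and 0.16 ± 0.081, short of the threshold (limma, adjusted p = 0.960 and 0.306). Of the 15 measured genes on that list 2 fell, 0 rose and 13 did not pass, with a median of -0.02. Over all genes tested, 1.62% passed as higher and 2.38% as lower. Before adjustment 1 of the 15, Sos2, was higher and 4 were lower with p under 0.05, against 8.76% and 13.4% of all genes. SAM called Sos2 higher and 2 genes lower. The adaptor gene Sos2 differed by 0.33 ± 0.073 (SE; limma, adjusted p = 0.0603).

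In the growth hormone receptor axis, 1 of 7 measured genes fell and 0 rose, with a median of -0.23. All 7 differences were negative, where 46.8% of all genes tested had a positive difference. The falling gene, Socs2, encodes a feedback inhibitor of growth hormone signalling that also binds the IGF1 receptor. Socs2 gave 141, 127 and 135 in the shARF arrays and 266, 250.3 and 247 in the shSCR arrays, with no overlap (-0.92 ± 0.066; limma, adjusted p = 0.00212). Its call held without any 1 array. Before adjustment 0 of the 7 were higher and 5 lower with p under 0.05, where 8.76% of all genes were higher and 13.4% lower. The receptor gene Ghr was not called, at -0.15 ± 0.062 (limma, adjusted p = 0.231).

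Of 11 measured genes of imprinted growth regulators and IGF2 mRNA-binding proteins 3 fell, 0 rose and 8 did not pass, with a median of -0.06. Over all genes tested, 1.62% passed as higher and 2.38% as lower. Before adjustment 2 of the 11, Cdkn1c and Igf2bp3, were higher and 3 lower with p under 0.05, against 8.76% and 13.4% of all genes. SAM called 1 higher, Cdkn1c, and 3 lower. Cdkn1c differed by 0.26 ± 0.056 (SE; limma, adjusted p = 0.0557). The 3 that fell were Dlk1, Nnat and Peg3. Dlk1, a Notch-related surface protein that holds back adipocyte differentiation, averaged 455 ± 22.3 in shARF and 704 ± 98.3 in shSCR (SD, n = 3 each; -0.62 on the log2 scale; limma, adjusted p = 0.0276). Nnat, a membrane proteolipid, averaged 476 ± 70.4 in shARF and 739.5 ± 51.7 in shSCR, and Peg3, a zinc finger protein, averaged 394 ± 14.8 in shARF and 490.1 ± 11.02 in shSCR (limma, adjusted p = 0.0339 and 0.0368). Support for these 3 was thinner than for Grb10: leaving out 1 array at a time, Dlk1 and Nnat each kept the call in 1 of 6 cases and Peg3 in 0.

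Genes that release or mimic the binding proteins mostly did not pass. Among 10 measured genes of IGFBP proteases, their inhibitors and the acid-labile subunit, 0 passed in limma. Before adjustment 1 was higher and 2 were lower with p under 0.05, and SAM called 1 higher and 1 lower. C1s1, 1 of those 2 and the gene SAM called lower, averaged 13.3 in shARF and 16.9 in shSCR. It exceeded the detection level on 0 shARF and 3 shSCR arrays, so it entered the test through the shSCR arrays alone. The protease gene Htra1 differed by 0.36 ± 0.080 and Adam9 by -0.25 ± 0.059 (limma, adjusted p = 0.0602 and 0.0725). Of 8 measured IGFBP-related and CCN genes 1 rose, Ccn4, a matrix protein of WNT signalling, at 729 ± 63.1 in shARF and 552 ± 17.0 in shSCR (SD, n = 3 each; limma, adjusted p = 0.0395). That call was lost whichever array was left out. Of the 8 differences 1 was positive, where 46.8% of all genes tested had a positive difference, and the median was -0.19. Before adjustment 1 was higher and 4 were lower (Ccn1, Crim1, Kazald1 and Ccn5) with p under 0.05. The shares over all genes tested were 8.76% higher and 13.4% lower.

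Downstream of the receptor, 21 measured genes of PI3K, AKT and mTOR signalling held 0 that passed in limma, and the median was 0.00. Before adjustment 3 of the 21 were higher and 7 lower with p under 0.05, where 8.76% of all genes were higher and 13.4% lower. SAM called 0 of them higher and 1 lower. The largest support there was for Pik3r3, a regulatory subunit of PI3K, at -0.60 ± 0.163, and Pdpk1, the kinase that activates AKT, at 0.22 ± 0.061 (limma, adjusted p = 0.0997 and 0.106). The next list holds FOXO factors themselves and genes that these factors induce when AKT is inactive. Of 17 measured genes there 1 fell, the muscle ubiquitin ligase gene Fbxo32, at 71.6 ± 5.04 in shARF and 94.7 ± 6.36 in shSCR (SD, n = 3 each; limma, adjusted p = 0.0436), a call lost whichever array was left out, and the list median was -0.14. Before adjustment 0 of these 17 were higher and 8 lower with p under 0.05, where 13.4% of all tested genes were lower. The factor gene Foxo1 was 1 of the 8. Of 6 measured genes for matrix and integrin partners 0 passed in limma and 1 was higher and 0 lower both in SAM and before adjustment with p under 0.05. The proteoglycan gene Dcn differed by 0.71 ± 0.160 and the integrin gene Itgav by -0.15 ± 0.063 (limma, adjusted p = 0.0625 and 0.243).

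**Figure D4:**
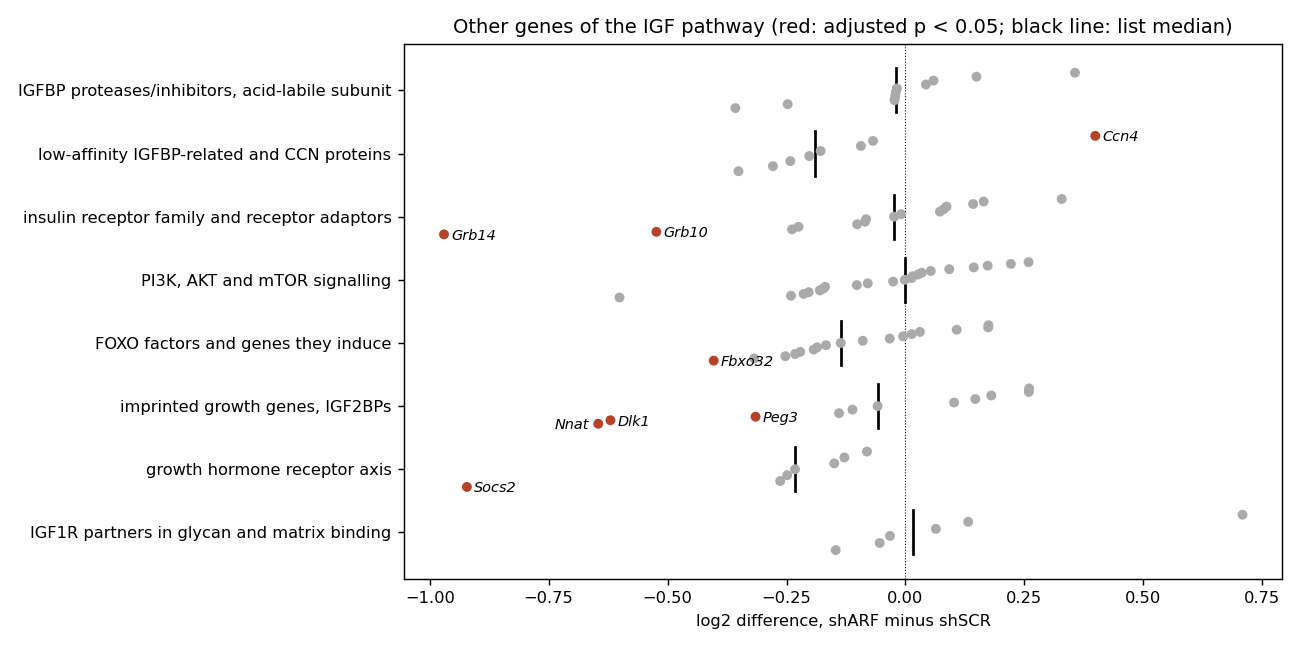
Log2 difference, shARF minus shSCR (horizontal axis), of each tested gene on the 8 lists of other IGF pathway genes; red points passed the test and are named, grey points did not, and black lines mark list medians. Grb14 at -0.97 and Socs2 at -0.92 lie farthest below 0, and Ccn4 at 0.40 is the gene that passed above 0.

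The cells carried fibroblast markers in both groups. For the marker counts below, 1.62% of all genes tested passed as higher and 2.38% as lower in limma. All 11 fibroblast marker genes were measured, 1 rose and 0 fell, and their summed signal was 19546 to 19744 in shARF and 17958 to 19402 in shSCR. Before adjustment 3 of the 11 were higher and 3 lower with p under 0.05 in limma, where 8.76% of all genes were higher and 13.4% lower. Contractile markers moved with the hairpin: 5 of 7 fell and 0 rose, and their summed signal was 9049 to 9967 in shARF and 13025 to 13545 in shSCR. Leaving out 1 array at a time, Cnn1 and Myl9 kept the call in 6 of 6 cases, Actg2 in 4, Tagln in 1 and Acta2 in 0, so that 2 of the 7 were called without shSCR replicate 1 and 2 without shSCR replicate 3. Of 7 macrophage markers 5 lay below the filter, Ptprc and Adgre1 among them, and of 4 hepatocyte markers 3 did, Alb among them. Epithelial markers summed to 327 to 463 in shARF and 217 to 249.7 in shSCR, with 1 of 5 measured genes higher, Krt18, whose call was kept in 1 of 6 such cases. Neural markers summed to 696 to 731 in shARF and 561 to 609 in shSCR. Of 5 measured genes 4 differences were positive and 1 gene passed, Nefl, higher in shARF, whose call was kept in 6 of 6. Nefl alone averaged 234 in shARF and 97.0 in shSCR. Tubb3 went the other way, with 150 in shARF and 212 in shSCR, short of the threshold (limma, adjusted p = 0.120). Skeletal muscle markers summed to 325 to 344 in shARF and 394 to 418 in shSCR. Of 5 measured genes 1 was lower, Acta1, whose call was kept in 2 of 6. Acta1 averaged 216 in shARF and 291 in shSCR, while 3 of the 5 differences were positive, with a list median of 0.01. The part of these shifts in the IGF family results was not tested. In bulk RNA, fewer cells of a type and less RNA per cell cannot be told apart.

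**Figure D5:**
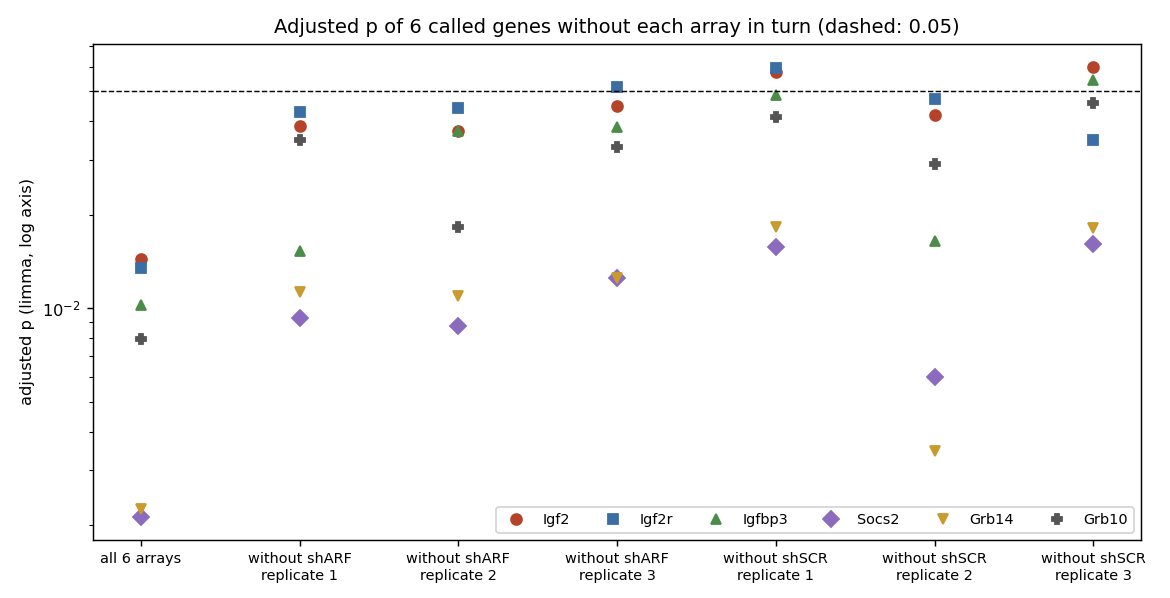
Adjusted p in limma (vertical axis, log scale) of Igf2, Igf2r, Igfbp3, Socs2, Grb14 and Grb10 with all 6 arrays and without each array in turn (horizontal axis); the dashed line is the threshold of 0.05. Socs2, Grb14 and Grb10 stay below the line in every case, while Igf2, Igf2r and Igfbp3 cross it in 2, 2 and 1 of the 6 cases.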

How the data were processed

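Total RNA of 6 fibroblast samples, 3 shARF and 3 shSCR by their labels, was measured on Affymetrix gene-level arrays. The authors deposited linear intensities. They were made, per the submitters' processing notes and the design text of the series, with RMA in Affymetrix Expression Console on core probesets; versions and genome build are not given in the sources used here. They were turned to log2 here. Probesets were named from the platform annotation, and 21056 of 26851 carried 1 gene symbol.

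A probeset was tested if its signal exceeded the 25th percentile of the array on at least 3 of 6 arrays, a filter passed by 20310 probesets of 15145 genes. The contrast shARF minus shSCR was fitted in limma (version 3.58.1, R 4.3.3; lmFit and eBayes, two-sided), with Benjamini-Hochberg adjustment over all tested probesets and a threshold of 0.05. A gene was read from its tested probeset with the highest mean. The fit was tested on simulated data.

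The members, the lists, the tests and the markers were chosen with earlier results of these data known. The naming rule took all members, Cdkn2a, Igfbp1, Insr, Irs1 and Irs2, and from each list up to 5 genes that passed, or otherwise the 2 with the smallest p. Further genes named (Ghr, Mir483, Foxo1, Ccn1, Crim1, Kazald1, Ccn5, C1s1, Cdkn1c, Igf2bp3, Sos2, the neighbours and single markers) were chosen after their values were seen. Promoter windows are from RefSeq, GRCm38.p6, which held windows for all 10 members. SAM, named in the design text, was run as an alternative with symmetric thresholds over all relabellings. The number of arrays limits the precision.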

Additional observations from a re-analysis of the deposited data

How the results depend on the processing

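The 2 falling members and the 1 rising member kept their calls with the replicate number as a block, without a filter, with the stricter filter (the array median), with median centring, with repeated quantile normalization, with log2(signal + 16), with a variance trend and in the SAM-type test. They also kept them with averaged probesets, but each member has 1 probeset, so averaging left its difference unchanged and says little about its call. Without both replicate 2 arrays, 0 members were called higher and 0 lower: Igf2 differed by -0.51 (limma, adjusted p = 0.0847), Igf2r by 0.46 (0.112) and Igfbp3 by -0.98 (0.0531), with fewer arrays in the fit. Without 1 array the members called higher numbered 0 to 1 and the members called lower 0 to 3 (0 without shSCR replicate 3, though Igfbp3 then had an adjusted p of 0.0544 in limma; 1 without shSCR replicate 1; 3 without shSCR replicate 2, where Igfbp5 also passed with a limma adjusted p of 0.0411). The direction of these 3 members was the same in all 16 alternatives.

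The 607 genes called in all were 336 with the replicate block, 372 with no filter, 996 with the stricter filter, 978 with log2(signal + 16), 1281 with the variance trend, 997 in the SAM-type test, 137 without both replicate 2 arrays, and 150 to 330 without 1 array. The pathway genes called higher, 1 in the analysis as reported, were 0 with no filter, 6 with the stricter filter, 2 with repeated quantile normalization, 6 with log2(signal + 16), 8 with the variance trend, 5 in the SAM-type test and 0 to 1 without 1 array. Those called lower, 7 as reported, were 3 with the replicate block, 4 with no filter, 12 with the variance trend, 2 without both replicate 2 arrays and 3 to 4 without 1 array. The cause was not tested, beyond the smaller number of arrays or genes that some alternatives have. Same-numbered arrays correlated in their deviations from the group means at 0.09, 0.05 and 0.001, and differently numbered arrays at -0.148 to 0.1. With 3 arrays in each group these values cannot decide whether the numbers pair the samples. The block changed no member's call.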
